A study of Homo sapiens with 4 samples.

Results

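The methionine and folate cycle genes described here were MTR, MTRR, MAT1A, MAT2A, MAT2B, AHCY, BHMT, GNMT and MTHFD1, 9 of the 58302 genes in the expression tables. The set was chosen on the data themselves, because MTR was higher with melatonin than with DMSO at 48 h. Every 48 h difference between melatonin and DMSO among the 9 genes is therefore given as a description. So are the time comparisons in DMSO and in melatonin, each of which shares a 48 h library with that contrast. HepG2, a human hepatocellular carcinoma cell line, was treated with 1 mM melatonin or with DMSO for 24 h or 48 h, and polyadenylated RNA was sequenced by mRNA-seq. There were 4 libraries, 1 for each condition (each treatment at each time). No replicate check of any difference was possible, and no p-value is given. The cells were a single established line without a matched normal hepatocyte culture, and in bulk RNA fewer cells of a type and less RNA per cell cannot be told apart.

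The methionine cycle regenerates methionine from homocysteine and turns it into S-adenosylmethionine, the methyl donor of DNA, RNA, histone and phospholipid methylation. Once the methyl group is used, S-adenosylhomocysteine is left, which is cleaved back to homocysteine. The folate cycle carries the carbon units that are used for this remethylation and for purine and thymidylate synthesis, and the liver is the organ in which both cycles are best known.

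The 4 libraries held 21616676, 22850046, 23086025 and 22820651 reads on genes in library order, which is DMSO then melatonin at 24 h followed by DMSO then melatonin at 48 h. The share of reads from mitochondrial genes was 19.96%, 16.6%, 9.77% and 11.9% in the same order. Levels are FPKM, fragments per kilobase of transcript, scaled to the size of the library, with exact Poisson 95% intervals of the read count behind them. The library size implied by the FPKM was 18357838, 20283332, 21930408 and 22205042 in library order. This is 84.9%, 88.8%, 95.0% and 97.3% of the reads on genes. The share rose with time, so ratios of 48 h to 24 h were lower than with the reads on genes as library size. A ratio of 2 libraries has an exact binomial (Clopper-Pearson) 95% interval, and a log2 fold change is log2((FPKM + 1)/(FPKM + 1)), which understates the change of low genes. These intervals cover counting error only and compare libraries, not conditions. A gene was tested where either library had an FPKM of at least 1, and was called at a 2-fold change on that scale. The hepatocellular markers ALB, AFP, APOA1, TTR, TF and SERPINA1 were all detected, with summed FPKM of 7809, 7944, 7768 and 6320. Within this list TTR was called higher with melatonin at 48 h (log2 fold change 2.31) and AFP, a fetal liver marker, lower (-1.28), and their part in the values of the members typical of liver was not tested. Of the 7 markers of blood, endothelial and fibroblast cells none reached an FPKM of 1, their sums lay between 0.504 and 1.12, and COL3A1, a fibroblast collagen, was at 0 reads in every library.

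MTR, methionine synthase, transfers the methyl group of methyl-folate to homocysteine with vitamin B12 as its cofactor. It lies on chr1:236795281-236903981 of hg38, on the plus strand. The 250 bases before its start in RefSeq (GRCh38.p14), chr1:236795031-236795280, are shown because MTR was the member with the largest 48 h difference on the log2(FPKM + 1) scale. Capitals mark an E2F motif, read as TTTCCCGC on the minus strand 150 to 143 bases before the start, and 3 CCAAT boxes, of which the first is on the minus strand.

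MTR promoter: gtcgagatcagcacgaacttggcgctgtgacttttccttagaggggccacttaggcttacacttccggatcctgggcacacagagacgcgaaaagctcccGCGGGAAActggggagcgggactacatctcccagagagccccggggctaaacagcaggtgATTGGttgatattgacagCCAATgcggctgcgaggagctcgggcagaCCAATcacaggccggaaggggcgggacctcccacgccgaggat

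Across 35116 RefSeq promoter windows of 300 bases (250 before the start and 50 after it), 3.31% held an E2F motif (TTTCCCGC, TTTGGCGC, TTTCGCGC or TTTGCCGC, both strands) and 34.6% held CCAAT on either strand. Of the 9 members 8 had a promoter in the RefSeq table, and MTRR had none. An E2F motif lay in 2 of these 8 windows, those of MTR and AHCY, and CCAAT lay in 5. A match describes the letters in the window and no site of binding.

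MAT2A encodes the methionine adenosyltransferase subunit of most extrahepatic tissues and proliferating cells, and lies on chr2:85539165-85545280, plus strand. Its messenger RNA carries hairpins in the 3′ UTR that the RNA methyltransferase METTL16 is known to bind and methylate, a mechanism by which cells adjust MAT2A to S-adenosylmethionine. The hairpin motif was searched as TACAGAGAA or TACAGAAAA on the transcript strand, and each of the 6 matches in the 1509 bases of the MAT2A 3′ UTR (transcript ENST00000306434.8, GENCODE 44) is shown in 27 bases with the motif in capitals.

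MAT2A site 1, chr2:85543803-85543829: ggcgtaggcTACAGAGAAgccttcaag
MAT2A site 2, chr2:85544590-85544616: gtgatgtcaTACAGAGAAgtcacaggg
MAT2A site 3, chr2:85544775-85544801: tggtgtagcTACAGAGAAaccagcttc
MAT2A site 4, chr2:85544890-85544916: tggcgtaagTACAGAGAAgccatcacc
MAT2A site 5, chr2:85545005-85545031: aaggtgtccTACAGAAAAaccttgggt
MAT2A site 6, chr2:85545113-85545139: ctggtgtggTACAGAGAAgccagcttg

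The motif was found at 5 positions as TACAGAGAA and at 1 position as TACAGAAAA, and the 3′ UTRs of the other 8 members held no match. Of 18709 3′ UTRs of MANE Select transcripts (the agreed reference transcript of each gene), 4.52% held at least 1 match. The MAT2A 3′ UTR was the 1 with 6, the most of any. The motif was searched as that of the MAT2A hairpins, so nothing is read from this rank. Among the 2647 UTRs of like length 3.97% held a match.

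The promoters of MAT2A, chr2:85538918-85539167, and of BHMT, chr5:79111559-79111808, are shown because these 2 genes lay furthest from 0 after MTR in the 48 h comparison, in opposite directions. Capitals mark TATAAA, 32 to 27 bases before the start of MAT2A and 29 to 24 bases before that of BHMT, and in MAT2A a CCAAT box on the minus strand.

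MAT2A promoter: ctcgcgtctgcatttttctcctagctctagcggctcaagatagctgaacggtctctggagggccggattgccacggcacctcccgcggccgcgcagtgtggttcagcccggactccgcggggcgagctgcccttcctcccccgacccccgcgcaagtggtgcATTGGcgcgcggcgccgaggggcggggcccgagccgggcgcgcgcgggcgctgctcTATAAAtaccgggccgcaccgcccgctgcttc
BHMT promoter: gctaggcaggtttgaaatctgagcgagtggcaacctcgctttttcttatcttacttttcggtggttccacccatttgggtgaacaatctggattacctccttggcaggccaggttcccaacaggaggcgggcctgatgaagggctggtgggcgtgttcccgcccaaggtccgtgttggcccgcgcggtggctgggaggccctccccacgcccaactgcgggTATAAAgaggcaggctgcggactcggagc

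TATAAA was found in the windows of 2 of the 8 members and in 11.5% of all windows. The E-box CACGTG was found in 1 of the 8, MTHFD1, and in 7.26% of all windows. The amino acid response element (TGATGCAA or TGATGAAA, both strands) was found in none of the 8 and in 1.96% of all windows.

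**Figure D1:**
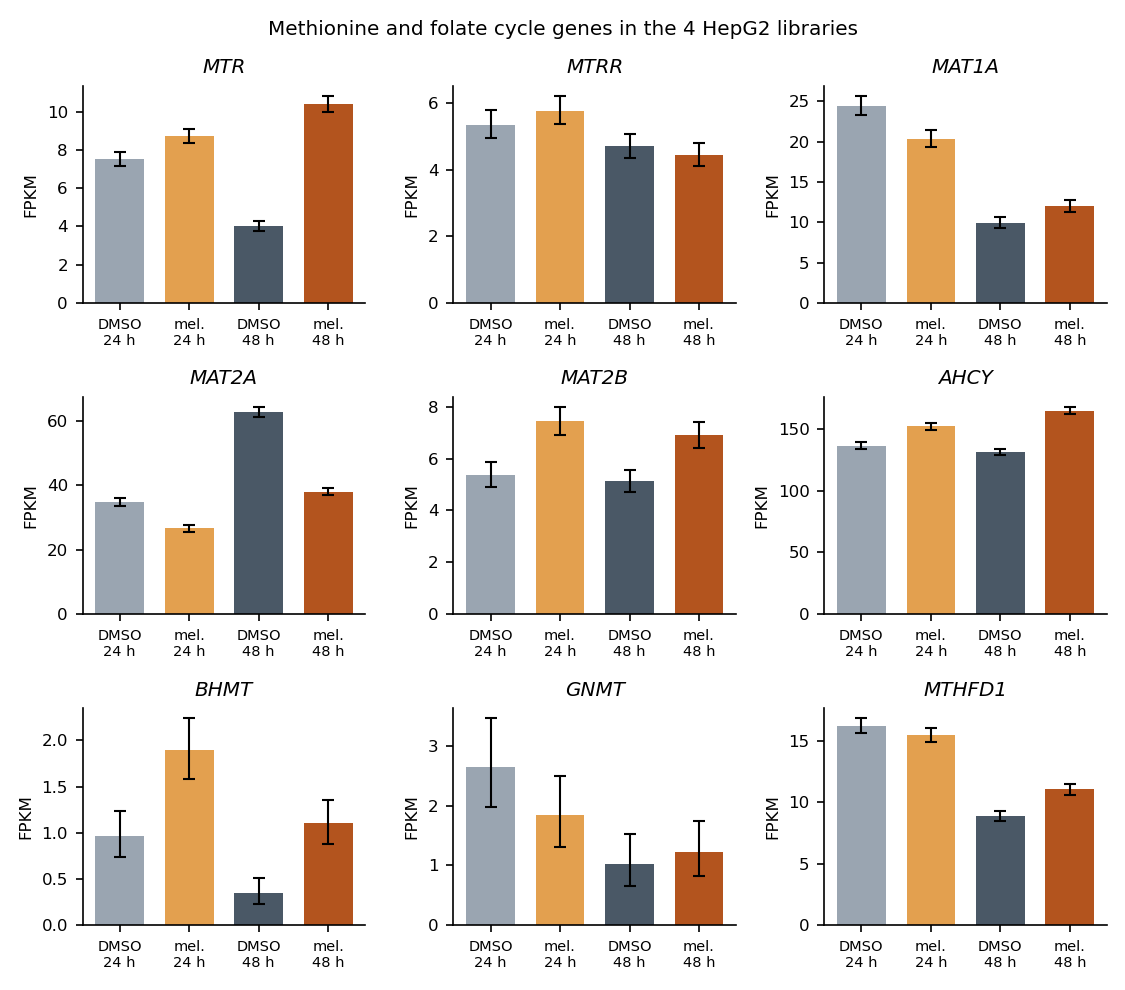
FPKM of the 9 genes in the 4 HepG2 libraries, 1 library for each bar; error bars are exact Poisson 95% intervals of the read counts and do not include differences between cultures. MTR was lowest in DMSO at 48 h (4.01) and highest in melatonin at 48 h (10.4), MAT2A was highest in DMSO at 48 h (62.7), and MAT1A was higher in both 24 h libraries than in either 48 h library.

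MTR had an FPKM of 7.505 in DMSO and 8.71 in melatonin at 24 h, and of 4.01 in DMSO and 10.4 in melatonin at 48 h, from 1000 to 2624 reads. The 4 counting intervals did not overlap: 7.14 to 7.89, 8.34 to 9.10, 3.76 to 4.27 and 10.00 to 10.8. The 48 h DMSO library was thus below both 24 h libraries, whereas the 48 h melatonin library was above them. The ratio of melatonin to DMSO was 1.16 at 24 h (interval 1.09 to 1.24) and 2.59 at 48 h (2.41 to 2.79), or 0.19 and 1.19 as log2 fold changes. From 24 h to 48 h the ratio was 0.534 (0.493 to 0.579) in DMSO and 1.19 (1.12 to 1.26) in melatonin. MTR was the 1 member past the 2-fold limit at 48 h, and the nearest of those short of it were MAT2A at -0.70 and BHMT at 0.64.

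MTRR, methionine synthase reductase, restores MTR when its B12 cofactor has been oxidized, and lies on chr5:7851186-7906025, plus strand. Its FPKM was 5.36 in DMSO and 5.78 in melatonin at 24 h, and 4.71 in DMSO and 4.44 in melatonin at 48 h. Melatonin and DMSO were not distinguished by counting at either time, with ratios of 1.08 (0.970 to 1.20) and 0.943 (0.845 to 1.05). Levels per length of MTR and MTRR may be set against each other within a library, where the choice of library size does not enter. MTR was at 1.40 (1.28 to 1.54) times MTRR in DMSO and 1.51 (1.39 to 1.64) times in melatonin at 24 h. At 48 h the ratio was 0.851 (0.771 to 0.940) in DMSO and 2.34 (2.14 to 2.55) in melatonin. With the deposited gene lengths the enzyme and its reductase thus had the reverse order in the 48 h DMSO library and in the other libraries. This order depends on the lengths, 11374 bases for MTR and 6498 for MTRR, whereas the change of the ratio between libraries does not. Another exon model gave 19254 bases for MTR, and the order was not computed with it. MTRR shares 100 exon bases with FASTKD3 on the opposite strand, and the sources used here do not say whether strand was used in counting.

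BHMT, betaine-homocysteine methyltransferase, remethylates homocysteine with betaine in place of folate and is typical of liver and kidney. It lies on chr5:79111779-79132290, plus strand. It was low here, with FPKM of 0.960 (62 reads) in DMSO and 1.89 (135 reads) in melatonin at 24 h, and of 0.350 (27 reads) in DMSO and 1.10 (86 reads) in melatonin at 48 h. The ratio of melatonin to DMSO was 1.97 (1.45 to 2.71) at 24 h and 3.15 (2.02 to 5.04) at 48 h. Neither time reached a 2-fold change on the log2(FPKM + 1) scale, at 0.56 and 0.64, since the added 1 is large beside these levels. With 0.1 added instead, BHMT reached 1.42 at 48 h and was called. BHMT lies within DMGDH, which encodes dimethylglycine dehydrogenase, the next enzyme of betaine breakdown, on the opposite strand. The genes share 239 of the 3487 exon bases of BHMT, so reads from them could not be fully told apart. DMGDH, which was named after its values were seen, had FPKM of 1.95, 2.63, 0.642 and 2.04 in library order. BHMT2, a related methyltransferase, was higher than BHMT in each library and had log2 fold changes with melatonin of -0.18 at 24 h and 0.18 at 48 h. BHMT2 was at 7.85 (6.01 to 10.4) times BHMT in DMSO at 24 h and at 3.45 (2.83 to 4.22) times in melatonin. At 48 h it was at 13.0 (8.76 to 20.02) times in DMSO and 4.81 (3.795 to 6.15) times in melatonin.

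MAT2A had an FPKM of 34.9 in DMSO and 26.7 in melatonin at 24 h, and of 62.7 in DMSO and 38.1 in melatonin at 48 h. It was lower with melatonin at both times, with ratios of 0.766 (0.725 to 0.808) and 0.607 (0.583 to 0.633). The log2 fold changes were -0.37 and -0.70, neither of them 2-fold. METTL16, the methyltransferase of the hairpins printed above, had FPKM of 5.40, 5.72, 4.10 and 4.14 and log2 fold changes with melatonin of 0.07 at 24 h and 0.01 at 48 h. MAT2A shares 562 of its 4485 exon bases with GGCX on the opposite strand. GGCX had 3011, 3465, 3560 and 2930 reads, fewer in melatonin than in DMSO at 48 h and more at 24 h, and the part of these reads in the MAT2A values was not tested.

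MAT1A encodes the methionine adenosyltransferase of differentiated liver and lies on chr10:80271820-80289684, minus strand. Its FPKM was 24.4 in DMSO and 20.4 in melatonin at 24 h, and 9.92 in DMSO and 12.02 in melatonin at 48 h. The ratio of melatonin to DMSO was 0.834 (0.777 to 0.895) at 24 h and 1.21 (1.10 to 1.33) at 48 h, so the sign was opposite at the 2 times. From 24 h to 48 h MAT1A was at 0.406 (0.373 to 0.442) in DMSO, a log2 fold change of -1.22, and at 0.590 (0.544 to 0.640) in melatonin, or -0.72. It was the 1 tested member past 2-fold on the log2(FPKM + 1) scale in the DMSO time comparison, although the plain ratios of GNMT (0.386) and of BHMT (0.365, not tested) were also past 2-fold, and after scaling to TPM, in which the length-corrected levels of every library have the same sum, it stood at -0.77 and MAT2A at 1.34.

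The ratio of MAT2A to MAT1A, the extrahepatic against the hepatic form, again needs no library size. It was 1.43 (1.34 to 1.52) in DMSO and 1.31 (1.23 to 1.40) in melatonin at 24 h. At 48 h it was 6.32 (5.87 to 6.81) in DMSO and 3.17 (2.95 to 3.40) in melatonin. Both 48 h libraries therefore held more MAT2A relative to MAT1A than the 24 h libraries, and the melatonin library at 48 h held less than its DMSO control.

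MAT2B (chr5:163503114-163519336, plus strand), the regulatory subunit that binds the MAT2A protein, was higher with melatonin at both times. Its FPKM was 5.38 in DMSO and 7.44 in melatonin at 24 h, and 5.13 in DMSO and 6.90 in melatonin at 48 h. The ratios were 1.38 and 1.35, with intervals that began at 1.24 and 1.21, and the 2 DMSO libraries and the 2 melatonin libraries had overlapping intervals among themselves. MAT2A was at 6.48 and 3.59 times MAT2B in DMSO and melatonin at 24 h, and at 12.2 and 5.52 times at 48 h. The catalytic subunit was thus lower relative to the regulatory subunit in the melatonin library of each time.

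**Figure D2:**
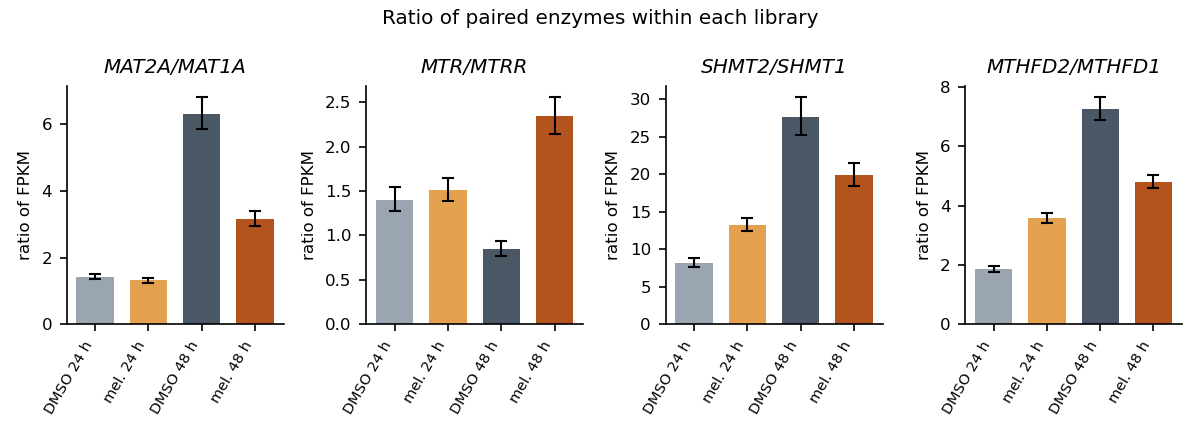
Ratio of FPKM of paired enzymes within each of the 4 libraries, with exact binomial 95% intervals that cover counting error only. MAT2A/MAT1A was 1.43 and 1.31 at 24 h and 6.32 (DMSO) and 3.17 (melatonin) at 48 h. With the deposited gene lengths, on which the side of 1 depends, MTR/MTRR was below 1 in the 48 h DMSO library (0.851) and not in the others.

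AHCY (chr20:34280268-34311802, minus strand), adenosylhomocysteinase, cleaves S-adenosylhomocysteine and was the most abundant member per length. Its FPKM was 136 in DMSO and 152 in melatonin at 24 h, and 131 in DMSO and 165 in melatonin at 48 h, from 9756 to 14258 reads. The ratios of melatonin to DMSO were 1.11 (1.08 to 1.14) and 1.26 (1.22 to 1.29), small differences that stand outside counting error because the gene is deeply sequenced. The 6 AHCY pseudogenes in the tables had 0 reads in every library. Of the AHCY-like proteins, AHCYL1 had log2 fold changes of 0.19 at 24 h and 0.43 at 48 h, and AHCYL2 of -0.19 and -0.18.

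GNMT (chr6:42960758-42963880, plus strand), glycine N-methyltransferase, uses excess S-adenosylmethionine and is abundant in normal liver. In HepG2 it was near the limit of the tested range, with FPKM of 2.64 (52 reads) and 1.84 (40 reads) in DMSO and melatonin at 24 h, and of 1.02 (24 reads) and 1.22 (29 reads) at 48 h. The ratios of melatonin to DMSO, 0.696 (0.449 to 1.07) and 1.19 (0.671 to 2.14), had intervals that include 1, so a difference was not detectable at this depth. The DMSO library was lower at 48 h than at 24 h, with a ratio of 0.386 (0.228 to 0.638).

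MTHFD1 (chr14:64388031-64463457, plus strand), the cytosolic trifunctional enzyme, interconverts the formyl, methenyl and methylene forms of folate. Its FPKM was 16.2 in DMSO and 15.5 in melatonin at 24 h, and 8.85 in DMSO and 11.1 in melatonin at 48 h. The ratio of melatonin to DMSO was 0.954 (0.906 to 1.01) at 24 h and 1.249 (1.17 to 1.33) at 48 h. Both 48 h libraries were below both 24 h libraries. MTHFD1 shares 178 exon bases with ZBTB25 on the opposite strand, in an exon model of 17357 bases. The deposited length of MTHFD1 is 9377 bases, so the share in the gene model behind the reads is not known.

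**Figure D3:**
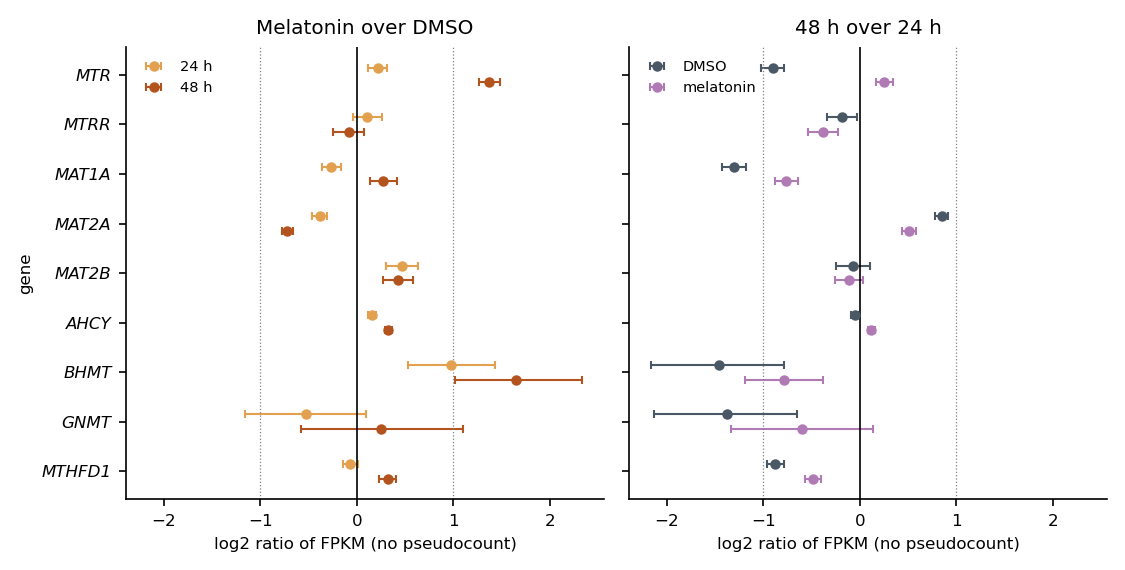
Log2 ratio of FPKM without a pseudocount for the 9 genes, melatonin over DMSO on the left and 48 h over 24 h on the right, with exact binomial 95% intervals for counting error; dotted lines mark 2-fold. At 48 h MTR and BHMT lay past the upper dotted line in melatonin over DMSO, with intervals that for BHMT (ratio 3.15, 2.02 to 5.04) were the wider.

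Read as a group, none of the 9 members was called at 24 h, where 4.35% of 13582 tested genes were called in either direction, 1.42% higher and 2.93% lower. The interval of the ratio lay apart from 1 for 6 of 9 members, beside 50.6% of tested genes, and 5 of 9 had a positive log2 fold change, with a median of 0.09 beside 0.02 over all tested genes. At 48 h 1 of 9 was called, MTR, beside 5.72% of 13805 tested genes (2.39% higher and 3.32% lower). The interval lay apart from 1 for 7 of 9, beside 62.2%. At this time 7 members were above 0 and 2, MTRR and MAT2A, below, with a median of 0.29 beside -0.02, but since the set was selected on this contrast nothing is read from these counts. MTR, MAT2B, AHCY and BHMT had a higher level with melatonin at both times. MAT2A had a lower level with melatonin at both times.

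In DMSO 8 members could be tested between 48 h and 24 h. Of these 1 was called, MAT1A, beside 7.74% of 13854 tested genes, and the interval lay apart from 1 for 7, beside 64.5%. All but MAT2A were below 0, with a median of -0.46 beside 0.00 over all tested genes. MTRR, MAT2B and AHCY turned positive after scaling to TPM, and MAT2B and AHCY also did so with the sum of reads on genes as library size. In melatonin 9 members were tested and none was called, beside 4.15% of 13489 tested genes. The interval lay apart from 1 for 7 of them, beside 55.2%, and 6 were below 0, with a median of -0.32 beside -0.04. MAT2B turned positive here under both scalings.

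Another 66 genes of the surrounding pathways were taken from lists of folate cycle enzymes, folate carriers, methionine and transsulfuration enzymes, vitamin B12 handling, methionine salvage and polyamines, and small-molecule methyltransferases. At 24 h 53 were tested and none was called, beside 4.35% of all tested genes. Of these 35 (66.0%) were above 0, beside 53.5%, and their median was 0.11, beside 0.02. At 48 h 55 were tested, 26 (47.3%) were above 0, beside 47.5%, and the median was -0.01, beside -0.02. Of the 55, 1 was called at 48 h, beside 5.72% of all tested genes. It was ALDH1L1, the cytosolic formyl-folate dehydrogenase. Its FPKM was 2.85 in DMSO and 3.998 in melatonin at 24 h, and 1.79 in DMSO and 4.76 in melatonin at 48 h. These are log2 fold changes of 0.38 and 1.05, and its order over the 4 libraries was the one of MTR.

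Of the 23 folate cycle enzymes 20 were tested at 24 h and 22 at 48 h, with medians of 0.16 and 0.08. TYMS, thymidylate synthase, had FPKM of 24.1, 26.1, 12.5 and 21.8 in library order and log2 fold changes of 0.11 and 0.75. SHMT1, the cytosolic serine hydroxymethyltransferase, had log2 fold changes of -0.21 and 0.36, whereas SHMT2, its mitochondrial counterpart, had 0.44 and -0.01. MTHFD2, the mitochondrial methylene-folate dehydrogenase, had FPKM of 30.1, 55.4, 64.3 and 53.2 and log2 fold changes of 0.86 and -0.27. MTHFD1L, the mitochondrial formyl-folate synthetase, had 0.26 and -0.08. The 48 h value of SHMT2 turned positive in 3 alternative scalings. MTHFD2 was at 1.85 (1.76 to 1.95) times MTHFD1 in DMSO and 3.58 (3.42 to 3.74) times in melatonin at 24 h, and at 7.26 (6.90 to 7.65) and 4.81 (4.58 to 5.05) times at 48 h. SHMT2 was likewise at 8.19 (7.64 to 8.77) and 13.2 (12.4 to 14.2) times SHMT1 at 24 h, and at 27.6 (25.2 to 30.3) and 19.9 (18.5 to 21.5) times at 48 h. For both pairs the melatonin library had the higher ratio at 24 h and the lower at 48 h.

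Transsulfuration removes homocysteine toward cysteine. CBS, cystathionine beta-synthase, had FPKM of 5.996, 8.90, 10.7 and 7.35 in library order, and log2 fold changes of 0.50 at 24 h and -0.48 at 48 h. Its near-identical copy CBSL held 254 reads in DMSO at 24 h and 19 to 43 reads in the other libraries, and with both summed the 24 h ratio was 1.12 (1.03 to 1.22) in place of 1.48 for CBS alone. The 24 h value of CBS is therefore uncertain. CTH, cystathionine gamma-lyase, had FPKM of 5.19, 7.78, 9.24 and 7.01, and log2 fold changes of 0.50 and -0.35. Both enzymes had the highest FPKM of the 4 libraries in DMSO at 48 h. The B12 chaperones MMACHC and MMADHC were below 0 at both times, at -0.30 and -0.10 for MMACHC and at -0.13 and -0.15 for MMADHC, the 24 h value of MMADHC turning positive after scaling to TPM. The interval of the ratio of melatonin to DMSO lay apart from 1 for MMADHC at both times and for MMACHC at 24 h. It included 1 for MMACHC at 48 h. Of all tested genes 50.6% at 24 h and 62.2% at 48 h had an interval apart from 1. Of the 7 B12 genes tested 5 were above 0 at 24 h and 2 at 48 h, beside 53.5% and 47.5% of all tested genes. MMAB, named after its values were seen, had FPKM of 4.01, 5.71, 1.59 and 3.33 in library order. The 3 folate carriers tested, SLC19A1, SLC46A1 and SLC25A32, were all below 0 at 48 h, at -0.27, -0.32 and -0.38, and none was 2-fold. Of all 13805 genes tested at 48 h 7252 were below 0. The carriers were named after their values were seen.

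**Figure D4:**
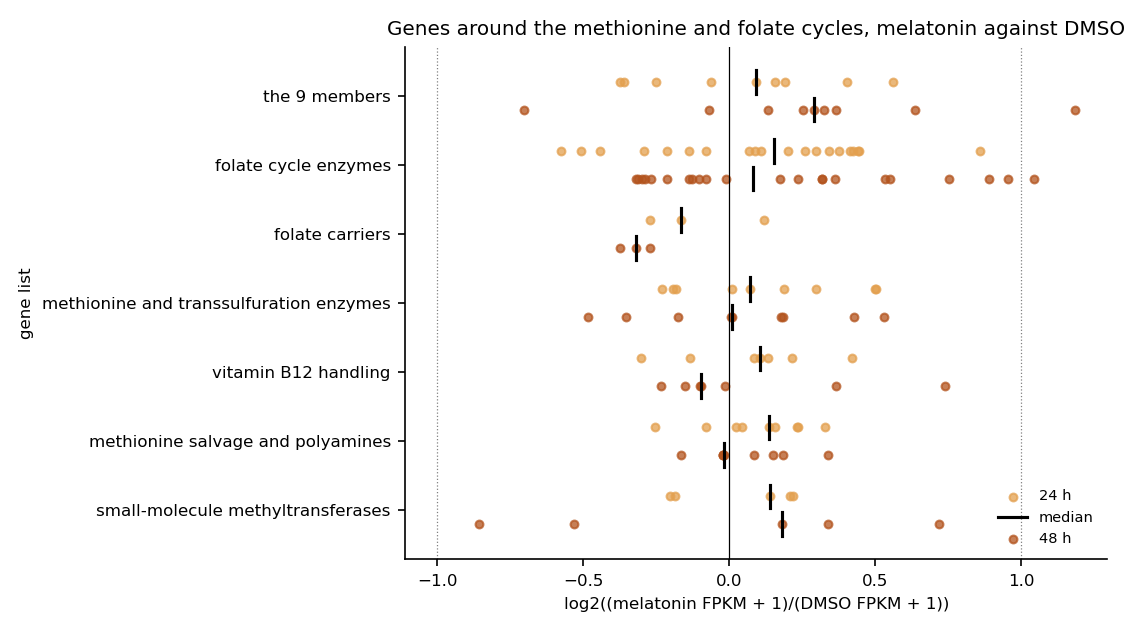
Log2((melatonin FPKM + 1)/(DMSO FPKM + 1)) of each tested gene of the 9 members and of the 6 pathway lists, at 24 h (light) and 48 h (dark), with the median of each list as a bar and dotted lines at 2-fold. Of the points MTR (1.19) and ALDH1L1 (1.05) at 48 h lay past a dotted line, and the list medians lay between -0.32 and 0.29.

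Markers of S phase and of cycling cells in general, such as MKI67, are set beside these values. Of 10 such genes (PCNA, MCM2 to MCM7, RRM2, TK1 and MKI67) 10 were above 0 with melatonin at 48 h, beside 47.5% of all tested genes, with a median of 0.74. TK1 was called higher, beside 2.39% of all tested genes. The summed FPKM of the 10 was 441 in DMSO and 404 in melatonin at 24 h, and 192 in DMSO and 314 in melatonin at 48 h. At 24 h 2 of 10 were above 0, beside 53.5% of all tested genes. In DMSO 10 of 10 were lower at 48 h than at 24 h, 7 of them past 2-fold. Of all 13854 genes tested there 6884 were lower, 587 of them past 2-fold. The summed level thus had its lowest value in the 48 h DMSO library, in which 7 of the 9 members also had theirs (all but MTRR and MAT2A), beside 31.0% of the 14612 genes that reached an FPKM of 1 anywhere. MTR was chosen for its values in this library among others, so nothing is read from that count. The part of S phase or of cell cycling in the members' values was not tested.

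The genes most like MTR over the 4 libraries were taken by the Euclidean distance of log2(FPKM + 1), centred on each gene's mean, over the 10525 protein-coding genes for which no library had fewer than 50 reads. The 5 nearest were C21orf33 at 0.117, MND1, a meiotic recombination factor, at 0.143, EVC and STRIP2 at 0.146, and UQCC2, an assembly factor of mitochondrial complex III, at 0.159. C21orf33 had FPKM of 6.73, 6.92, 3.40 and 8.65, with MTR at 7.505, 8.71, 4.01 and 10.4. Of the other members BHMT was nearest at 0.52 and MAT2A farthest at 1.68. BHMT and GNMT, with as few as 27 and 24 reads, fell short of the 50 reads asked of the compared genes. Among the members that met this limit MAT2B was nearest at 0.63. The distance rests on 4 points that share their libraries with every value above.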

How the data were processed

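HepG2 cells had been treated with 1 mM melatonin or DMSO for 24 h or 48 h, and each condition was sequenced as 1 library, so groups came from the labels and held 1 sample each. The tables deposited by the authors give FPKM, gene length and annotation per gene on hg38. The study's methods name MapSplice 2.0.1.6 and Cufflinks, and the submitters' processing notes list Bowtie2 2.0.6, TopHat2 2.0.9, Cufflinks 2.1.1 and Cuffdiff 2.1.1, without saying which made these values. The annotation release and the strand setting of counting are not given in the sources used here. FPKM times length came in whole multiples of 1 read for 100% of values (tolerance 0.01 reads), so read counts could be recovered. Genes at 0 stayed at 0 reads, and no floor entered a level, ratio or fold change. Gene length was used as deposited. Exon bases shared with neighbours were counted on another exon model, in which the length of a gene can differ from the deposited one. Log2 fold changes used a pseudocount of 1, a minimum FPKM of 1 in either library and a 2-fold limit over the whole table, with 95% exact Poisson and Clopper-Pearson intervals for counting error. No test of the conditions can be made with 1 library a group. The calculation was tested on data drawn with known fold changes. Python 3.11.15, numpy 2.4.6, pandas 2.3.3, scipy 1.17.1 and matplotlib 3.10.9 were used. Promoters were taken from RefSeq GRCh38.p14 and 3′ UTRs from GENCODE 44. The members, lists and motifs were chosen with earlier results of these data known. Named genes were the 9 members, the pathway genes past 2-fold with melatonin, their reaction partners, of which some are not reported here, and the 5 genes nearest to MTR; any other gene is said to be named after its values were seen or stands as a marker, neighbour or copy. The alternatives were a pseudocount of 0.1, other minimum levels, a 1.5-fold limit, TPM with and without mitochondrial genes, the sum of reads as library size, centring on the median of all genes or of genes of like length, and protein-coding genes alone.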

Additional observations from a re-analysis of the deposited data

Results flagged for a closer look

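In 4 of the 9 members and 7 of the 14 named pathway genes tested at both times the melatonin difference had opposite signs at 24 h and 48 h, as it had in 33.5% of all 12775 genes tested at both times. These differences between the times were not tested, since each time had 1 library a group. The log2 fold change at 48 h minus that at 24 h was -0.16 for MTRR, 0.50 for MAT1A, 0.49 for GNMT and 0.36 for MTHFD1 among the members. Of these MTRR and GNMT had counting intervals that include a ratio of 1 at both times, and MTHFD1 at 24 h, so MAT1A alone stood apart from 1 in both directions. Among the folate cycle enzymes it was 0.57 for SHMT1, -0.45 for SHMT2, -1.13 for MTHFD2 and -0.34 for MTHFD1L. At 48 h the counting intervals of SHMT2 (0.965 to 1.02) and MTHFD1L (0.889 to 1.003) include a ratio of 1. Among the methionine and transsulfuration enzymes it was -0.98 for CBS, -0.86 for CTH and 0.36 for BHMT2. With CBSL summed, the ratios of CBS were 1.12 at 24 h and 0.693 at 48 h, so its value of -0.98 is uncertain. The counting interval of the BHMT2 ratio lay apart from 1 at both times, below it at 24 h and above it at 48 h. After scaling to TPM the 24 h value of MTHFD1 turned positive, and SHMT2 at 48 h turned positive in 3 other scalings, so for these genes the opposite signs depended on the scaling.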

How the results depend on the processing

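No paired analysis was possible because each condition had 1 library and the labels give no replicate numbers, and no library could be left out. Counting depth limits BHMT and GNMT, with 24 to 135 reads. Of the 11 alternatives 6 can change a gene's fold change, and over these MTR at 48 h, on which the set was selected, ranged from 1.20 to 1.38, beside 1.19 as reported, and the 9 members kept the sign of their 48 h difference in each of them that tested the gene. Scaling to TPM shifted the median log2 fold change of all tested genes to 0.17 at 24 h, 0.46 for time in DMSO and 0.23 for time in melatonin, and the share of higher genes among those called from 32.7% to 45.8%, from 45.2% to 80.7% and from 58.9% to 72.9%. The sum of reads as library size shifted time in DMSO to 0.14 and its share to 61.8%, and centring by length the 24 h share to 49.3% and that of time in melatonin to 48.7%. Of 66 counts over members and pathway lists 51 stayed within 1.5 times and 15 did not. For melatonin at 48 h the members called were 2 (MTR and BHMT) with a pseudocount of 0.1, with TPM and with TPM without mitochondrial genes, and 3 (MAT2A added) at 1.5-fold. The pathway genes called at 48 h were 4 with a pseudocount of 0.1, with ALDH1L1, DMGDH and MMAB among them, 0 at an FPKM of at least 5, 7 at 1.5-fold, 3 with TPM and 4 with TPM without mitochondrial genes. At 24 h 1 pathway gene, MTHFD2, was called at 1.5-fold and with TPM. For time in DMSO 2 members were called with a pseudocount of 0.1 (MAT1A and GNMT), 5 at 1.5-fold and 3 with TPM without mitochondrial genes (MAT1A, BHMT and GNMT). With TPM the 1 member called there was MAT2A in place of MAT1A. For time in melatonin 1 member, MAT1A, was called at 1.5-fold. The alternatives also call more of all tested genes. For melatonin at 48 h these were 12.1% with a pseudocount of 0.1, 18.7% at 1.5-fold, 13.5% with TPM and 16.8% with TPM without mitochondrial genes, but 4.4% at an FPKM of at least 5. At 24 h they were 11.6% at 1.5-fold and 9.21% with TPM, for time in DMSO 15.0%, 23.8% and 19.2% in the order of the members' counts above and 20.3% with TPM, and for time in melatonin 12.8% at 1.5-fold. The larger counts at 1.5-fold and the smaller at an FPKM of 5 follow from those limits, and for the other alternatives the cause was not tested.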

Other observations

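Methionine salvage, which returns the methylthio group of polyamine synthesis to methionine, was listed together with the enzymes of polyamine synthesis. All 9 genes of this joint list were tested at both times, with medians of 0.13 at 24 h and -0.02 at 48 h. None was called, beside 4.35% and 5.72% of all tested genes. ODC1, which makes putrescine, had log2 fold changes of 0.33 and 0.18 with melatonin, and AMD1, which decarboxylates S-adenosylmethionine, had -0.25 and -0.17. Both were named after their values were seen.

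Of the 9 small-molecule methyltransferases 5 were tested, and they differed in direction at 48 h. GAMT, the creatine-forming enzyme, had FPKM of 59.2, 65.3, 24.5 and 41.0 in library order, DMSO before melatonin at each time, and a log2 fold change of 0.72 at 48 h. HNMT, which methylates histamine, had FPKM of 22.7, 19.6, 31.9 and 17.2, and -0.86 at 48 h. NNMT, which methylates nicotinamide, had at most 1 read in a library, and ASMT, the last enzyme of melatonin synthesis, also had at most 1. These genes were named after their values were seen.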
